A study of Homo sapiens with 12 samples.

Results

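The effect of silencing MAPK14, which encodes the stress-activated kinase p38α, was set against the effect of silencing MAPK8 and MAPK9 together, which encode JNK1 and JNK2, in MIO-M1 cells, a human cell line derived from Müller glia of the retina. The genes compared were those present in both deposited count tables. Those genes numbered 16752, of 17598 in the siMAPK14 table and 17146 in the siMAPK8_9 table, and 13648 of them passed a filter on low counts and were tested. 4 groups of 3 libraries were compared, namely siMAPK14, the control siRNA of that experiment, siMAPK8_9 (siRNA against both MAPK8 and MAPK9) and the control siRNA of that second experiment. All 12 libraries came from cells labelled wild type, on day 3, and all cells, controls included, had received an siRNA. The difference of the effects was the log2 fold change of siMAPK14 over its own control minus that of siMAPK8_9 over its own control. A positive difference means that the siMAPK14 effect lay above the siMAPK8_9 effect, and a negative one that it lay below. The labels give neither the number of siRNAs per gene nor whether replicates are separate cultures. The p-values therefore measure only how far these replicates scatter, which may be technical.

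p38α and JNK are mitogen-activated protein kinases of the stress-activated branch, switched on by inflammatory cytokines, osmotic stress, ultraviolet light and translational stress. p38α is activated by the kinases MAP2K3 and MAP2K6 and acts through MAPKAPK2 and the MSK kinases on transcription and on the stability of AU-rich messenger RNAs, whereas JNK is activated by MAP2K4 and MAP2K7 and phosphorylates c-Jun, ATF2 and other AP-1 proteins. Müller glia span the vertebrate retina as its principal glia and respond to injury with gliosis, and in fish and some other vertebrates they re-enter the cell cycle and make neurons.

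Depth and composition differed between the groups. The 6 controls each held 31040067 to 31510571 counts, the siMAPK14 libraries 14516406 to 19463837, and the siMAPK8_9 libraries 9246294 to 20136463. Mitochondrially encoded transcripts made up 1.56% to 2.03% of each control library, 32.1% to 45.0% of each siMAPK14 library, and 36.9%, 8.93% and 35.0% in siMAPK8_9. Replicate 2 of siMAPK8_9 thus stood apart, and it also held a summed level of 1914 CPM (counts scaled to library size, here to nuclear-encoded counts) over 24 epithelial and keratinocyte marker genes, against 91.7 to 125 in the other 11 libraries. Counts over gene lists and gene calls that changed when this library was left out are given both ways. The difference passed an adjusted p of 0.05 (edgeR) for 15.9% of all genes with every library and for 37.0% without this one. Each list count is to be read beside these shares. Both effects also ran with transcript length. With the genes divided by length into 5 equal bins, from the shortest to the longest bin the median log2 fold change went from 0.70 to -0.60 in siMAPK14 and from 0.97 to -0.79 in siMAPK8_9, so that the median difference went from -0.27 to 0.16. The 2 experiments carry different batch labels, and a gap between their control groups or between their knockdown groups cannot be told apart from the batch. Of 28 Müller glia markers, 26 were in both tables and 21 exceeded 1 CPM in every control library. The photoreceptor markers summed to at most 1.04 CPM in any control and 2.53 CPM in any library. Of the other retinal neuron markers, 8 exceeded 1 CPM in every control library, and that list summed to 576 to 768 CPM in the controls. In the controls the Müller glia list summed to 9509 to 10097 CPM, of which VIM held 5443 to 6142. RLBP1 of that list was at 0 CPM and KCNJ10 at most 0.0972 CPM in any control. All 13 fibroblast and pericyte markers exceeded 1 CPM in every control library, with sums of 14571 to 16954 CPM. In a bulk sample fewer cells of a type and less RNA per cell cannot be told apart.

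The targeted genes differed between the experiments as the labels name them, with a smaller contrast for MAPK14 than for MAPK8 and MAPK9. MAPK14 (chr6:36027808-36124214, GRCh38.p14) stood at 80.6, 79.2 and 76.7 CPM in the siMAPK14 controls, 29.9, 36.8 and 34.4 CPM in siMAPK14, 86.2, 82.6 and 83.4 CPM in the siMAPK8_9 controls and 67.3, 55.5 and 41.6 CPM in siMAPK8_9. All 3 siMAPK14 libraries lay below every other library, and the siMAPK8_9 libraries lay between them and both control groups. MAPK14 fell by 1.23 on the log2 scale in siMAPK14 (adjusted p = 6.09e-05) and by 0.62 in siMAPK8_9 (adjusted p = 0.0024), and the difference of -0.61 ± 0.20 (SE, adjusted p = 0.0559) missed the threshold of 0.05. With siMAPK8_9 replicate 2 left out it was -0.56 (adjusted p = 0.0376). MAPK8 (chr10:48306677-48439360) stood at 27.3, 28.9 and 31.0 CPM in the siMAPK14 controls, 26.7, 30.0 and 28.0 CPM in siMAPK14, 27.7, 27.5 and 27.4 CPM in the siMAPK8_9 controls and 10.6, 8.46 and 10.4 CPM in siMAPK8_9. Its siMAPK8_9 libraries lay below all 9 others, which overlapped, and the difference was 1.47 ± 0.17 (SE, adjusted p = 1.60e-04). MAPK9 (chr5:180233143-180292083) stood at 68.4 ± 0.620 CPM (SD, n = 3) in the siMAPK14 controls, 63.8 ± 6.12 CPM in siMAPK14, 63.7 ± 1.03 CPM in the siMAPK8_9 controls and 22.5 ± 4.69 CPM in siMAPK8_9, with the same separation and a difference of 1.42 ± 0.18 (SE, adjusted p = 4.14e-04). Neither MAPK8 nor MAPK9 passed the threshold in siMAPK14 (-0.04 and -0.10, adjusted p = 0.77 and 0.537).

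Among the other p38 isoforms, MAPK11, which encodes p38β, stood at 5.13, 5.94 and 5.69 CPM in the siMAPK14 controls, 1.49, 1.13 and 1.18 CPM in siMAPK14, 4.83, 5.71 and 4.78 CPM in the siMAPK8_9 controls and 5.13, 4.69 and 1.74 CPM in siMAPK8_9. Its siMAPK14 libraries were the lowest of the 12, and the difference was -1.77 ± 0.45 (SE, adjusted p = 0.0208). MAPK13, which encodes p38δ, differed by -2.07 ± 0.58 (SE, adjusted p = 0.0312), with levels between 1.08 and 7.45 CPM and its highest level in siMAPK8_9 replicate 2, without which the difference was -1.36 (adjusted p = 0.0452). MAPK12, which encodes p38γ, had a difference of -0.44 ± 0.43 (SE, adjusted p = 0.532). Of 25 p38 pathway kinases and substrates, 3 had a difference above 0 and 4 below 0 past the threshold, against 6.87% and 9.02% of all 13648 genes. MAP2K3, the upstream kinase of p38, rose in siMAPK14 (0.73) and fell in siMAPK8_9 (-0.87), a difference of 1.60 ± 0.24 (SE, adjusted p = 0.00107). The others above 0 were MEF2C, a transcription factor that p38 phosphorylates (1.40), and RPS6KA4, which encodes MSK2 (1.27). Both fell in siMAPK8_9 (-1.39 and -1.68), and neither passed the threshold in siMAPK14 (0.00 and -0.40, adjusted p = 0.991 and 0.224). Those below 0 were ATF2 (-0.86), MAPKAPK3 (-0.46) and the AU-rich element binding proteins ZFP36 (-1.96) and ZFP36L1 (-1.87). ATF2 rose in siMAPK8_9 alone (0.83) and MAPKAPK3 fell in siMAPK14 alone (-0.40). ZFP36 rose in siMAPK14 (0.41) and by more in siMAPK8_9 (2.37), whereas ZFP36L1 went from -0.52 to 1.35. For MEF2C, MAPKAPK3, ZFP36 and ZFP36L1 the gap between the controls was more than 2 times that between the knockdowns. For ZFP36 these gaps were 1.94 and -0.02. MAPKAPK2 differed by 0.49 (adjusted p = 0.127), or 0.77 without siMAPK8_9 replicate 2 (adjusted p = 3.79e-04). The p38 list had 8 above and 5 below 0 without siMAPK8_9 replicate 2, and the median turned from -0.06 to 0.02. Of 23 JNK pathway genes 1 was above 0, the upstream kinase MAP3K4 (0.71), and 2 were below 0, the upstream kinase MAP4K4 (-0.79) and the ubiquitin ligase and JNK substrate ITCH (-0.35), or 3 above and 2 below 0 without siMAPK8_9 replicate 2. ITCH passed the threshold in 7 of 23 other settings. With all libraries the share of JNK pathway genes called was 13%, beside 15.9% of all genes.

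The difference passed an adjusted p of 0.05 for 2169 of 13648 genes (15.9%), 938 above 0 (6.87%) and 1231 below 0 (9.02%), and 1017 of them differed at least 2-fold. The siMAPK14 effect was called for 6829 genes (50.0%), higher for 24.0% of genes and lower for 26.1%. The siMAPK8_9 effect was called for 8178 (59.9%), higher for 29.6% and lower for 30.3%. When libraries were scaled by total counts alone, 17.9% of the calls for the difference were above 0, against 43.2% with TMM scaling, and 1028 genes were called. That scaling put the median gene at -0.78 in siMAPK14, -0.67 in siMAPK8_9 and -0.12 in the difference, so a rise or fall in a single knockdown is relative to those shifts. In the other 11 libraries, without siMAPK8_9 replicate 2, the count was 5205 of 14052 (37.0%), of which 53.9% were above 0, and it held 2134 of the 2169 genes, all 2134 with the same sign. The median gene differed by -0.02, and across genes, which are not independent replicates, the 2 effects had Pearson's r = 0.538 and Spearman's rho = 0.656, as a description. Of the genes called for both single effects, 5009 moved the same way and 232 moved in opposite ways.

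The 2169 genes fell into 5 patterns. 935 passed the threshold for the siMAPK8_9 effect and not for the siMAPK14 effect, 494 of them higher and 441 lower in siMAPK8_9. 368 did so for siMAPK14 alone, 141 higher and 227 lower. 623 changed in the same direction in both knockdowns but by different amounts, and the siMAPK8_9 effect was the larger in 306 that rose and 259 that fell, against 20 and 38 for the siMAPK14 effect. 232 went in opposite directions, 74 higher in siMAPK14 and lower in siMAPK8_9, and 158 the reverse. The remaining 11 passed for neither single effect.

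**Figure D1:**
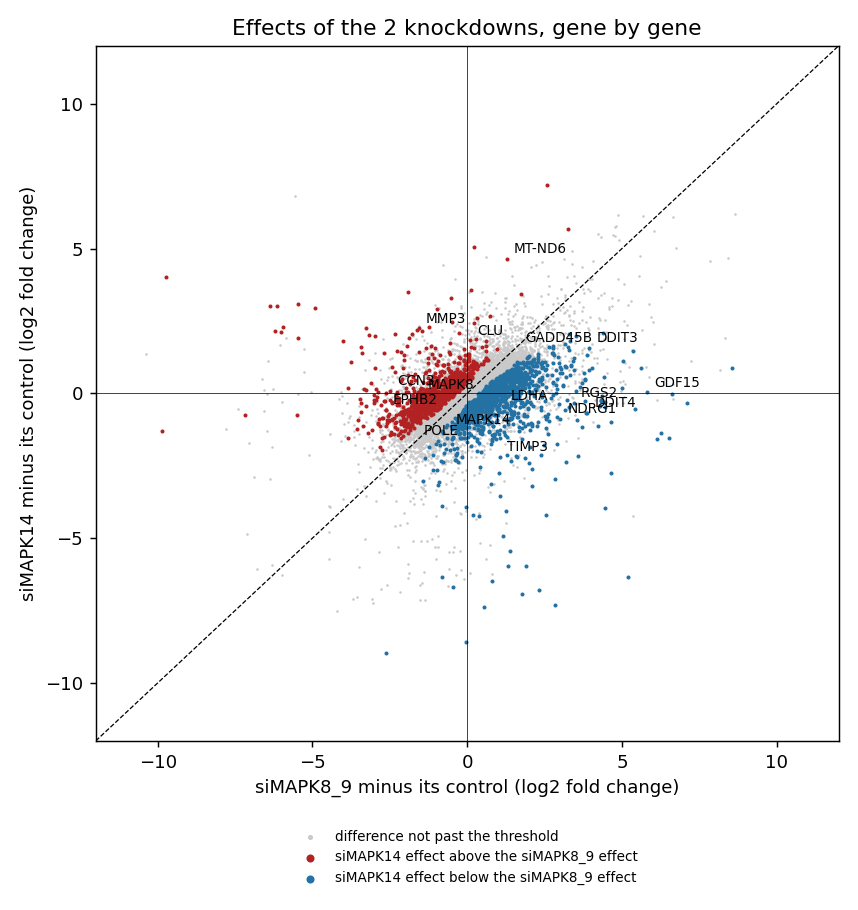
Log2 fold change of each tested gene in siMAPK14 over its control (vertical axis) against that in siMAPK8_9 over its control (horizontal axis), 1 point per gene, coloured by the sign of the difference where it passed an adjusted p of 0.05. The dashed line marks equal effects. The 938 red genes lie above it and the 1231 blue genes below it, with DDIT4, GDF15 and RGS2 far to the right and CCN3 and EPHB2 to the left.

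Read beside the levels of the 4 groups, a large share of these differences lay between the 2 control groups. The difference is the gap between the knockdown groups minus the gap between the control groups. Genes called for it were sorted by the larger gap, by a rule chosen after the values were seen. In 871 of the 2169 (40.2%) the gap between the controls was more than 2 times the gap between the knockdowns, in 510 (23.5%) the reverse held, and 788 lay between. Over all genes tested these shares were 31.5% and 29.2%. The gap between the controls was the larger in 60.2% of the 2169, against 51.7% of all genes tested. The 2 control groups differed past the threshold for 3045 genes (22.3%) and the 2 knockdown groups for 1799 (13.2%). This balance depended on a single library. When siMAPK8_9 replicate 2 was left out, 28.0% of 5205 called genes had the gap mainly in the controls and 39.6% mainly in the knockdowns.

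DDIT4, an inhibitor of mTORC1 induced by stress and hypoxia, shows a gap in the controls. It stood at 486, 544 and 582 CPM in the siMAPK14 controls, 308, 339 and 365 CPM in siMAPK14, 33.8, 32.4 and 32.2 CPM in the siMAPK8_9 controls and 476, 543 and 421 CPM in siMAPK8_9. The siMAPK8_9 controls were far below the other 9 libraries, siMAPK14 lay below its own control, and the siMAPK8_9 libraries overlapped the siMAPK14 controls. DDIT4 fell by 0.67 on the log2 scale in siMAPK14 and rose by 3.87 in siMAPK8_9, a difference of -4.54 ± 0.17 (SE, adjusted p = 3.80e-08). Of this, the controls differed by 4.03 and the knockdowns by -0.51. The gap was in the knockdowns for CLU, the extracellular chaperone clusterin, which stood at 27.7, 28.6 and 27.2 CPM in the siMAPK14 controls, 95.8, 107 and 97.6 CPM in siMAPK14, 42.1, 41.1 and 39.0 CPM in the siMAPK8_9 controls and 47.5, 43.4 and 38.4 CPM in siMAPK8_9. The siMAPK14 libraries were the highest of the 12, and siMAPK8_9 overlapped its control. CLU rose by 1.85 in siMAPK14 and differed by 0.08 in siMAPK8_9 (adjusted p = 0.475), a difference of 1.76 ± 0.14 (SE, adjusted p = 7.41e-06), with the knockdowns 1.21 apart and the controls -0.55 apart.

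**Figure D2:**
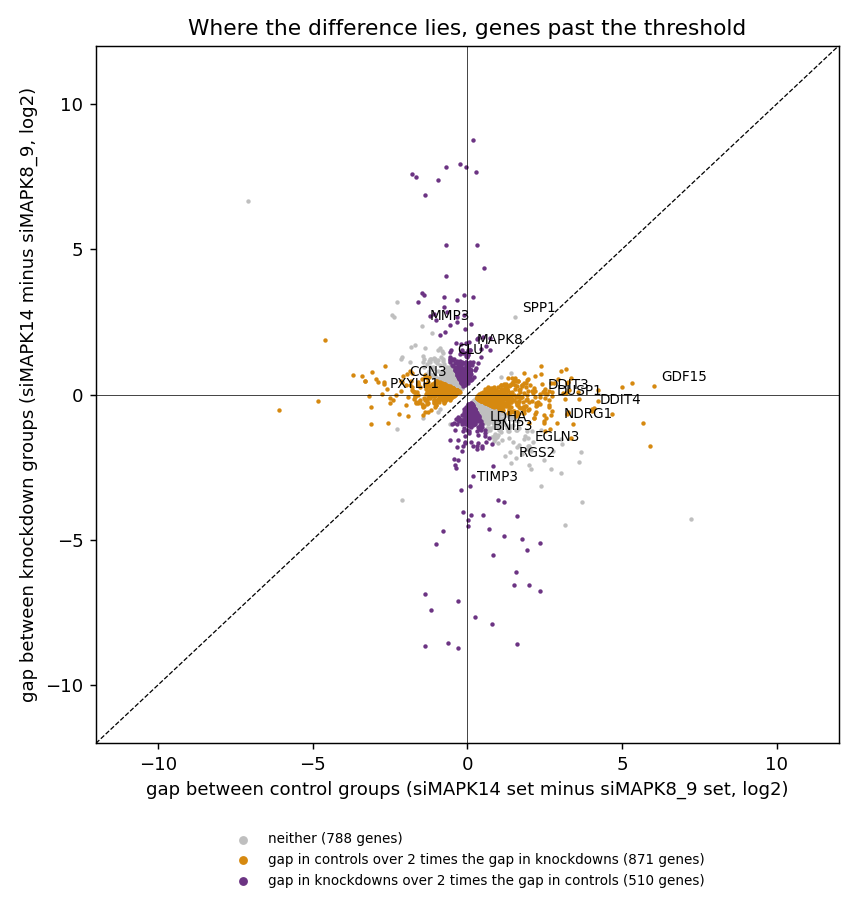
Gap between the knockdown groups against the gap between the control groups, both on the log2 scale as the siMAPK14 experiment minus the siMAPK8_9 experiment, for the 2169 genes called for the difference. Genes on the dashed line would have no difference. The 871 orange genes spread along the horizontal axis, where the controls differ, and the 510 purple genes along the vertical axis, where the knockdowns differ.

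Genes of glycolysis and of the response to low oxygen made up the list with the largest share of calls. Of 36 tested, none had a difference above 0 and 28 had one below 0, with a median of -1.36 against -0.02 over all genes. In siMAPK14 22 fell and 1 rose (median -0.51), whereas in siMAPK8_9 23 rose and 2 fell (median 0.96), and 11 passed the threshold in opposite directions. The median gap was 0.48 between the controls and -0.63 between the knockdowns. Without siMAPK8_9 replicate 2, 0 were above 0 and 28 below, with a median of -0.98. The siMAPK8_9 median was then 0.55, and the larger median gap moved to the controls, at 0.46 against -0.39 between the knockdowns.

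LDHA, which encodes the muscle-type subunit of lactate dehydrogenase, stood at 2358, 2284 and 2455 CPM in the siMAPK14 controls, 1738, 1835 and 1722 CPM in siMAPK14, 1739, 1660.4 and 1693 CPM in the siMAPK8_9 controls and 3524, 3791 and 4052 CPM in siMAPK8_9. The siMAPK8_9 libraries were the highest of the 12, and the siMAPK14 libraries were below their control and overlapped the siMAPK8_9 controls. The difference was -1.58 ± 0.16 (SE, adjusted p = 5.45e-05), with a fall of 0.42 in siMAPK14 and a rise of 1.16 in siMAPK8_9. BNIP3, a mitochondrial mitophagy receptor, stood at 175, 188 and 204 CPM in the siMAPK14 controls, 195, 192 and 191 CPM in siMAPK14, 132, 123 and 125 CPM in the siMAPK8_9 controls and 465, 504 and 571 CPM in siMAPK8_9. Its siMAPK14 libraries overlapped their control and its siMAPK8_9 libraries lay above all 9 others, a difference of -1.99 ± 0.14 (SE, adjusted p = 2.68e-06). For both genes the gap between the knockdowns was the larger (-1.10 and -1.41, against 0.48 and 0.58 between the controls). The related mitophagy receptor BNIP3L differed by -1.70 ± 0.12 (SE, adjusted p = 4.18e-06) and the glycolytic kinase PGK1 by -1.37 ± 0.16 (SE, adjusted p = 1.65e-04).

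NDRG1, EGLN3, SLC2A1 and VEGFA had their larger gap in the controls. NDRG1, a hypoxia-induced gene of stress and differentiation, stood at 1372, 1599 and 1871 CPM in the siMAPK14 controls, 824, 857 and 959 CPM in siMAPK14, 227, 209 and 217 CPM in the siMAPK8_9 controls and 1126, 2817 and 1282 CPM in siMAPK8_9. Its siMAPK8_9 controls were the lowest libraries and siMAPK8_9 replicate 2 the highest, and the difference was -3.87 ± 0.40 (SE, adjusted p = 7.91e-05), or -3.29 without that replicate. EGLN3, an oxygen-sensing prolyl hydroxylase, differed by -3.73 ± 0.29 (SE, adjusted p = 7.64e-06). The glucose transporter SLC2A1 differed by -2.97 ± 0.51 (SE, adjusted p = 0.00239) and the angiogenic factor VEGFA by -3.00 ± 0.71 (SE, adjusted p = 0.0137). Both were highest among the siMAPK8_9 libraries in replicate 2, at 662 and 509 CPM, and without it their differences were -2.13 and -1.71. HIF1A itself, the oxygen-regulated subunit of the hypoxia-inducible factor, fell in siMAPK14 (-0.80) and in siMAPK8_9 (-0.49) and had a difference of -0.30 ± 0.21 (SE, adjusted p = 0.355).

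The integrated stress response, in which phosphorylated eIF2α raises translation of ATF4 and thereby its target genes, was the other list in which most members were called. Of 47 genes tested, 32 had a difference below 0 and 1 above 0, with a median of -1.04. The list had 1 above and 34 below 0 of 48 without siMAPK8_9 replicate 2. Most members rose in siMAPK8_9. 20 rose and 9 fell in siMAPK14 (median 0.17), and 35 rose and 2 fell in siMAPK8_9 (median 1.23). The median gap was 0.77 between the controls and -0.22 between the knockdowns, and in 24 of the 33 called genes the gap lay mainly in the controls.

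DDIT3, which encodes the pro-apoptotic factor CHOP, stood at 110.5, 127 and 124 CPM in the siMAPK14 controls, 376, 339 and 369.9 CPM in siMAPK14, 23.5, 23.5 and 23.3 CPM in the siMAPK8_9 controls and 382, 292 and 405 CPM in siMAPK8_9. The knockdown groups overlapped, and every siMAPK14 control was above every siMAPK8_9 control. DDIT3 rose by 1.58 in siMAPK14 and by 3.94 in siMAPK8_9, a difference of -2.36 ± 0.17 (SE, adjusted p = 4.18e-06). ATF4 stood at 287, 328 and 338 CPM in the siMAPK14 controls, 619, 655 and 587 CPM in siMAPK14, 144, 156 and 150.2 CPM in the siMAPK8_9 controls and 736, 638 and 758 CPM in siMAPK8_9, again with the siMAPK8_9 controls lowest and the knockdown groups overlapping, and a difference of -1.28 ± 0.15 (SE, adjusted p = 1.65e-04). Its target TRIB3, a pseudokinase, differed by -2.04 ± 0.16 (SE, adjusted p = 8.71e-06), and GDF15, a stress-induced cytokine, by -5.77 ± 0.39 (SE, adjusted p = 2.57e-06). GDF15 was at 1.28, 1.82 and 1.18 CPM in the siMAPK8_9 controls and between 53.3 and 119 CPM in the other 9 libraries.

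Enzymes of amino acid supply that ATF4 induces were also below 0. Asparagine synthetase (ASNS) differed by -1.37 ± 0.18 (SE, adjusted p = 4.09e-04), phosphoglycerate dehydrogenase (PHGDH) by -1.46 ± 0.14 (SE, adjusted p = 5.45e-05) and glycyl-tRNA synthetase (GARS1) by -1.26 ± 0.13 (SE, adjusted p = 1.02e-04). RRAGA, which encodes a GTPase that carries amino acid signals to mTORC1, was called with an adjusted p of 2.33e-07. It stood at 136, 140.5 and 142 CPM in the siMAPK14 controls, 144, 122 and 147 CPM in siMAPK14, 52.7, 53.3 and 54.4 CPM in the siMAPK8_9 controls and 271, 289 and 308 CPM in siMAPK8_9, did not pass the threshold in siMAPK14 (-0.01, adjusted p = 0.916) and rose by 2.44 in siMAPK8_9. Of 38 mTORC1 regulators and nutrient sensors, 2 were above and 4 below 0 (15.8%, beside 15.9% of all genes). Without siMAPK8_9 replicate 2, 7 were above and 7 below 0, and 37.0% of all genes were called. The 1 integrated stress response gene above 0 was ATF5, an ATF4-related transcription factor, which rose in siMAPK14 (0.52) and fell in siMAPK8_9 (-0.47). NUPR1, a stress-induced transcriptional regulator, rose in both (1.60 and 3.27), a difference of -1.67 ± 0.26 (SE, adjusted p = 0.00123).

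Of 31 tested members of the unfolded protein response list, 4 were below 0 and none above, a share of 12.9% against 15.9% of all genes. They were XBP1 (-1.57), SEC24D (-1.15), MANF (-1.14) and HERPUD1 (-0.90), and in all 4 the gap lay mainly in the controls. HSPA5, the chaperone BiP, differed by -0.32 ± 0.36 (SE, adjusted p = 0.577). With siMAPK8_9 replicate 2 left out the list had 9 above and 4 below 0, and 37.0% of all genes were called.

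Promoters are shown for 4 genes of these lists whose difference was below 0 and that hold the letters of the element through which the list's own factor acts. The windows are the 250 bases upstream of the start given in the promoter table, 5′ to 3′ on the gene's strand, from RefSeq on GRCh38.p14. The table gives ASNS more than 1 start, and the window shown lies inside the longer span annotated for that gene. Capitals mark matches on either strand to TGATGNAA, the core of the C/EBP-ATF response element to which ATF4 binds, in ASNS and CHAC1. They mark matches to ACGTG, the core of the hypoxia response element, in ANKRD37 and BNIP3. In the CACGTG of the last 2 genes the forward and reverse matches overlap.
ASNS, chr7:97872409-97872658, minus strand: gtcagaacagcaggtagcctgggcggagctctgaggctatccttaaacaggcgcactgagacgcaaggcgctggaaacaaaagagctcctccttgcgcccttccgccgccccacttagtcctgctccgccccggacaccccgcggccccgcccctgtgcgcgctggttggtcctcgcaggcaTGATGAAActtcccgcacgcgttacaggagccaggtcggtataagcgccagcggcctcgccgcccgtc
CHAC1, chr15:40953221-40953470, plus strand: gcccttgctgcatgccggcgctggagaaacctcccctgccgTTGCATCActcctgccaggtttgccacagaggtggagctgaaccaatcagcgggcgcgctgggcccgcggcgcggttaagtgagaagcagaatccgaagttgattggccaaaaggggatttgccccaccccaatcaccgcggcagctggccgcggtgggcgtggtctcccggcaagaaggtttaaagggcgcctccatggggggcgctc
ANKRD37, chr4:185396591-185396840, plus strand: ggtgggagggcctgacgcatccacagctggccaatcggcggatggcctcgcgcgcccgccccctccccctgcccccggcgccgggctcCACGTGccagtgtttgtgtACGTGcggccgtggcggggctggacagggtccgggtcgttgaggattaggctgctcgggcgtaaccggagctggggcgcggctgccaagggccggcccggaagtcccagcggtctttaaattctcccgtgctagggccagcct
BNIP3, chr10:131981924-131982173, minus strand: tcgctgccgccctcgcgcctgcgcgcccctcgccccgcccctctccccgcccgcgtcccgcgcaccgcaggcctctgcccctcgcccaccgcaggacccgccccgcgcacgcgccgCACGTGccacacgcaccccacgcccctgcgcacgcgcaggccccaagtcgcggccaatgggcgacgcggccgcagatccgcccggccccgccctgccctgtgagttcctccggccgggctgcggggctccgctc
The ATF4 core occurred in 3 of the 25 integrated stress response genes below 0 that had a promoter in the table (12.0%), against 1.43% of 11150 tested genes with a promoter and 3.19% of all 27305 promoters. The hypoxia core occurred in 9 of 24 glycolysis and hypoxia genes below 0 (37.5%), against 23.2% of tested genes and 18.7% of all promoters. The hypoxia core was no more frequent in the called genes than in all 32 hypoxia-list genes with a promoter (40.6%), and it occurred in 42.1% of 19 AP-1 list genes. The ATF4 core occurred in 7.89% of 38 tested integrated stress response genes. The AP-1 letters TGANTCA occurred in 0 of 19 AP-1 list promoters, against 4.13% of tested genes. A match is a description of letters in this window. CHAC1, an ATF4 target that degrades glutathione, differed by -1.14 ± 0.25 (SE, adjusted p = 0.00993), and ANKRD37, a hypoxia-induced ankyrin repeat gene, by -3.35 ± 0.22 (SE, adjusted p = 2.57e-06).

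**Figure D3:**
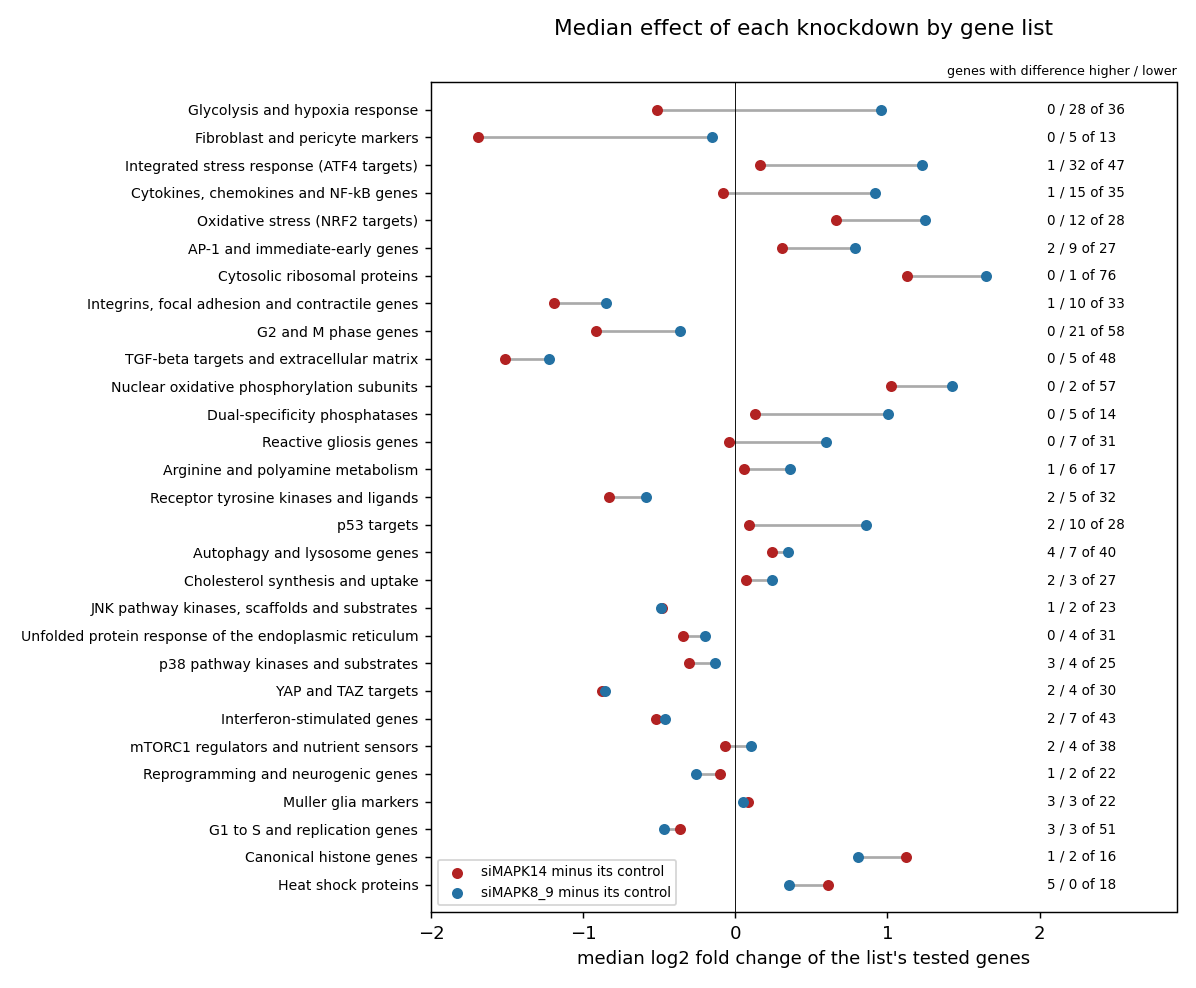
Median log2 fold change of the tested genes of each list in siMAPK14 (red) and siMAPK8_9 (blue), each over its own control, with the number of genes above and below 0 past the threshold for the difference at the right. Lists with at least 10 tested genes are shown, without the targeted family, the mitochondrial genes and the epithelial and retinal neuron markers. The red and blue points lie on opposite sides of 0 for glycolysis and hypoxia, at -0.51 and 0.96.

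Inflammatory genes that were called lay below 0 with 1 exception. Of 35 cytokines, chemokines and NF-kB genes, 15 were below and 1 above (45.7%, beside 15.9% of all genes), with a median of -0.79. 20 rose in siMAPK8_9 and 6 in siMAPK14, and the median gap was 0.99 between the controls and -0.08 between the knockdowns. In the other 11 libraries, without siMAPK8_9 replicate 2, the counts were 15 below and 6 above, with a median of -0.40. CXCL8, the neutrophil chemokine interleukin-8, stood at 719, 1125 and 1212 CPM in the siMAPK14 controls, 1268, 1890.1 and 1188 CPM in siMAPK14, 109.9, 113 and 119 CPM in the siMAPK8_9 controls and 804, 2849.6 and 1129 CPM in siMAPK8_9. Its siMAPK8_9 controls were the lowest libraries and siMAPK8_9 replicate 2 the highest, and its difference of -3.30 ± 0.55 (SE, adjusted p = 0.00194) was -2.52 without that replicate. IL6, whose product is a pleiotropic cytokine, differed by -2.17 ± 0.44 (SE, adjusted p = 0.00656) and CSF2, which encodes the growth factor GM-CSF, by -4.61 ± 0.55 (SE, adjusted p = 2.67e-04). CCL5, a chemokine for T cells, fell in siMAPK14 (-0.96) and rose in siMAPK8_9 (1.69), and the inhibitors of NF-kB signalling TNFAIP3 and NFKBIA differed by -2.07 and -1.05. The 1 gene above 0 was MMP3, which encodes the matrix protease stromelysin-1. It rose in siMAPK14 (2.25) and fell in siMAPK8_9 (-1.56), a difference of 3.82 ± 0.60 (SE, adjusted p = 0.00143).

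The AP-1 and immediate-early list held 27 tested genes, of which 9 were below and 2 above 0 (40.7%, beside 15.9% of all genes). In 9 of these 11 the gap lay mainly in the controls. The list had 3 above and 9 below 0 without siMAPK8_9 replicate 2. JUN, the transcription factor that gives JNK its name, stood at 446, 516 and 500.1 CPM in the siMAPK14 controls, 392, 385 and 521 CPM in siMAPK14, 262, 267 and 270.0 CPM in the siMAPK8_9 controls and 271, 513 and 283 CPM in siMAPK8_9. The knockdown groups overlapped, JUN passed the threshold in neither effect (-0.17 in siMAPK14, adjusted p = 0.52, and 0.42 in siMAPK8_9, adjusted p = 0.101), and its difference was -0.59 ± 0.30 (SE, adjusted p = 0.196). FOS, FOSL1, ATF3, JUNB and MAFF, members of AP-1 and related dimers, were below 0 at -1.19, -0.90, -1.56, -0.89 and -2.56. Of these, FOS, ATF3 and JUNB rose in siMAPK14 (1.57, 1.97 and 0.86) and by more in siMAPK8_9 (2.77, 3.53 and 1.75). FOSL1 and MAFF rose in siMAPK8_9 (0.93 and 2.86) and did not pass in siMAPK14 (0.03 and 0.31, adjusted p = 0.788 and 0.134). FOSB and the growth regulator MYC were above 0 at 1.96 and 0.87. KLF4, a zinc finger regulator of growth arrest, fell in siMAPK14 (-0.92) and rose in siMAPK8_9 (0.69), a difference of -1.61 ± 0.22 (SE, adjusted p = 6.24e-04). FOSB rose in siMAPK14 (2.69) and did not pass in siMAPK8_9 (0.73, adjusted p = 0.0854).

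Of 14 dual-specificity phosphatases, which inactivate MAP kinases, 5 were below 0 and none above (35.7%, beside 15.9% of all genes). DUSP1, which acts on p38 and JNK, stood at 259, 289 and 270.4 CPM in the siMAPK14 controls, 271, 262 and 299 CPM in siMAPK14, 42.6, 44.0 and 43.9 CPM in the siMAPK8_9 controls and 305, 313 and 336 CPM in siMAPK8_9. The siMAPK8_9 controls were far below the 9 others, and the siMAPK8_9 libraries were the highest. DUSP1 rose by 2.87 in siMAPK8_9 and was at 0.02 in siMAPK14 (adjusted p = 0.828), a difference of -2.85 ± 0.12 (SE, adjusted p = 9.47e-08). DUSP10, which prefers p38 and JNK, stood at 293, 310.0 and 304 CPM in the siMAPK14 controls, 299.8, 344 and 304 CPM in siMAPK14, 164, 164 and 169.8 CPM in the siMAPK8_9 controls and 543, 359 and 603 CPM in siMAPK8_9 and differed by -1.53 ± 0.22 (SE, adjusted p = 7.61e-04). DUSP4, DUSP5 and DUSP6, which act mainly on ERK or, for DUSP4, also on JNK, differed by -1.65, -1.06 and -2.48. The list had 1 above and 6 below 0 without siMAPK8_9 replicate 2, and the median turned from -0.40 to 0.17. For all 5 the controls of the siMAPK14 experiment were higher than those of the siMAPK8_9 experiment.

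Of 28 targets of NRF2, the regulator of the response to oxidants, 12 were below 0 and none above (42.9%, beside 15.9% of all genes). In 10 of the 12 the gap lay mainly in the controls. The list had 1 above and 20 below 0 without siMAPK8_9 replicate 2. Thioredoxin reductase (TXNRD1) rose in siMAPK8_9 (1.64) and not past the threshold in siMAPK14 (-0.21, adjusted p = 0.0892), a difference of -1.85 ± 0.14 (SE, adjusted p = 5.08e-06). The quinone reductase NQO1 rose in both (1.08 and 2.28), a difference of -1.21 ± 0.24 (SE, adjusted p = 0.00534), and OSGIN1, an oxidant-induced growth inhibitor, differed by -2.37 ± 0.19 (SE, adjusted p = 9.75e-06). Of 28 p53 targets, 10 were below and 2 above 0 (42.9%, beside 15.9% of all genes), or 4 above and 10 below 0 without siMAPK8_9 replicate 2. Of the p53 targets called with all libraries, 8 had the gap mainly in the controls and 1 mainly in the knockdowns. The cell cycle inhibitor CDKN1A stood at 53.3 ± 5.51 CPM (SD, n = 3) in the siMAPK14 controls, 101 ± 7.55 CPM in siMAPK14, 14.0 ± 0.286 CPM in the siMAPK8_9 controls and 112 ± 41.0 CPM in siMAPK8_9 and differed by -2.09 ± 0.28 (SE, adjusted p = 5.44e-04). GADD45A, a growth arrest factor, and BAX, a pro-apoptotic BCL2 relative, rose in both knockdowns and by more in siMAPK8_9, at -1.05 ± 0.28 (SE, adjusted p = 0.0244) and -0.63 ± 0.19 (SE, adjusted p = 0.0408). The BAX difference missed the threshold with the trend on transcript length removed (adjusted p = 0.130, edgeR). CCNG1, which encodes cyclin G1, had its gap in the knockdowns (-0.95, against 0.16 in the controls) and differed by -1.11 ± 0.18 (SE, adjusted p = 0.00177).

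Genes of G2 and M phase formed a list in which the gap lay mainly in the knockdowns. Of 58 tested, 21 were below 0 and none above (36.2%, beside 15.9% of all genes), with a median of -0.47. 43 fell in siMAPK14 (median -0.92) and 32 in siMAPK8_9 (median -0.36). The median gap was 0.07 between the controls and -0.41 between the knockdowns, and 16 of the 21 had it mainly in the knockdowns. When siMAPK8_9 replicate 2 was left out, 33 were below and 3 above 0.

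CDK1, the kinase that drives entry into mitosis, stood at 109, 107 and 103 CPM in the siMAPK14 controls, 63.5, 72.2 and 73.7 CPM in siMAPK14, 114, 103 and 107 CPM in the siMAPK8_9 controls and 110.2, 93.3 and 121 CPM in siMAPK8_9. The 2 control groups overlapped, the siMAPK14 libraries were below all 9 others, and siMAPK8_9 spanned both control groups. CDK1 fell by 0.60 in siMAPK14, had no change past the threshold in siMAPK8_9 (0.00, adjusted p = 0.995), and differed by -0.60 ± 0.14 (SE, adjusted p = 0.0148). KIF20A, a kinesin of cytokinesis, stood at 100.2, 81.3 and 79.4 CPM in the siMAPK14 controls, 23.2, 24.5 and 24.3 CPM in siMAPK14, 109, 102 and 102 CPM in the siMAPK8_9 controls and 45.2, 40.8 and 47.3 CPM in siMAPK8_9. It fell in both knockdowns and by more in siMAPK14, a difference of -0.62 ± 0.15 (SE, adjusted p = 0.015). The spindle factor TPX2 and the midzone kinesin KIF23 did likewise, at -0.45 ± 0.13 (SE, adjusted p = 0.0293) and -0.76 ± 0.15 (SE, adjusted p = 0.00569). UBE2C, the ubiquitin-conjugating enzyme of the anaphase-promoting complex, rose in siMAPK8_9 (1.11) and did not pass in siMAPK14 (-0.11, adjusted p = 0.355), a difference of -1.22 ± 0.13 (SE, adjusted p = 1.06e-04). CDC25B, a phosphatase that activates cyclin-dependent kinases, fell in siMAPK14 alone (-0.99) and differed by -1.15 ± 0.14 (SE, adjusted p = 3.56e-04). The proliferation markers TOP2A and MKI67 fell in both, with differences of -0.36 and 0.25 that missed the threshold (adjusted p = 0.241 and 0.673). Without siMAPK8_9 replicate 2 the MKI67 difference was 0.77 (adjusted p = 0.0268).

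Genes of the G1 to S transition and of replication were called for the difference 3 times above and 3 times below 0 among 51, or 11.8% beside 15.9% of all genes. The list had 12 above and 12 below 0 without siMAPK8_9 replicate 2, where 37.0% of all genes were called. With all libraries, 27 of the 51 fell in siMAPK14 and 27 in siMAPK8_9. The G1 kinase CDK6 fell by 1.53 in siMAPK14 and by 2.15 in siMAPK8_9, a difference of 0.62 ± 0.16 (SE, adjusted p = 0.0223), which was 0.31 with the trend on transcript length removed (adjusted p = 0.284, edgeR). The helicase subunit MCM3 differed by 0.60 ± 0.14 (SE, adjusted p = 0.0124) and the repressor E2F7 by -1.38 ± 0.22 (SE, adjusted p = 0.00149). CCND1, which encodes cyclin D1, fell in both and had a difference of 0.20 ± 0.39 (SE, adjusted p = 0.764), or 0.78 without siMAPK8_9 replicate 2 (adjusted p = 0.00598).

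Most matrix genes fell in both knockdowns. Of 48 TGF-beta targets and extracellular matrix genes, 40 fell in siMAPK14 (median -1.51) and 33 in siMAPK8_9 (median -1.22), while 5 had a difference below 0 and none above (10.4%, beside 15.9% of all genes). Without siMAPK8_9 replicate 2, 14 were above and 9 below 0, and the median turned from -0.41 to 0.22. COL1A2, a chain of type I collagen, stood at 11155, 9962 and 9481 CPM in the siMAPK14 controls, 2338, 2510.1 and 2791 CPM in siMAPK14, 11370.3, 11299.7 and 11516 CPM in the siMAPK8_9 controls and 2755, 5274 and 3575 CPM in siMAPK8_9. The knockdown groups lay below the controls, siMAPK8_9 replicate 2 was the highest of the 6, and the difference was -0.44 ± 0.29 (SE, adjusted p = 0.328). COL1A1, the other chain, stood at 841 ± 62.7 CPM (SD, n = 3) in the siMAPK14 controls, 102 ± 18.8 CPM in siMAPK14, 259 ± 8.32 CPM in the siMAPK8_9 controls and 94.4 ± 53.4 CPM in siMAPK8_9 and differed by -1.60 ± 0.40 (SE, adjusted p = 0.0193), with its gap in the controls. Without siMAPK8_9 replicate 2 the COL1A1 difference was -0.96. FN1, which encodes fibronectin, had a difference of -1.77 ± 0.61 (SE, adjusted p = 0.0667), which missed the threshold. The matrix protein POSTN fell in siMAPK14 and rose in siMAPK8_9, a difference of -1.78 ± 0.29 (SE, adjusted p = 0.00185). The 13 fibroblast and pericyte markers, which include collagen genes, summed to 14571 to 16954 CPM of nuclear-encoded counts in the controls, 3721 to 4538 in siMAPK14 and 4142 to 7787 in siMAPK8_9, and their part in these values was not tested.

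Of 33 integrin, focal adhesion and contractile genes, 10 were below and 1 above 0 (33.3%, beside 15.9% of all genes), or 11 and 7 without siMAPK8_9 replicate 2. ACTA2, smooth muscle actin, stood at 50.7, 44.3 and 39.1 CPM in the siMAPK14 controls, 83.8, 116 and 76.8 CPM in siMAPK14, 36.7, 41.1 and 40.2 CPM in the siMAPK8_9 controls and 420.3, 102 and 411 CPM in siMAPK8_9. All 6 knockdown libraries were above all 6 controls, with siMAPK8_9 replicates 1 and 3 the highest, and the difference was -1.94 ± 0.54 (SE, adjusted p = 0.0305). CALD1, the actin-binding protein caldesmon, fell in siMAPK14 (-0.48) and rose in siMAPK8_9 (0.39), a difference of -0.87 ± 0.15 (SE, adjusted p = 0.0027). FLNC, the actin crosslinker filamin C, differed by 1.85 ± 0.16 (SE, adjusted p = 2.44e-05). It stood at 368 ± 28.1 CPM (SD, n = 3) in the siMAPK14 controls, 203 ± 18.6 CPM in siMAPK14, 901 ± 29.8 CPM in the siMAPK8_9 controls and 138 ± 17.9 CPM in siMAPK8_9, so the control groups lay further apart than the knockdown groups.

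Of 30 YAP and TAZ targets, 2 were above and 4 below 0 (beside 15.9% of all genes), or 12 and 7 without siMAPK8_9 replicate 2. F3, tissue factor, fell in siMAPK14 (-1.49) and rose in siMAPK8_9 (1.29), a difference of -2.79 ± 0.47 (SE, adjusted p = 0.00221). NT5E, the ectonucleotidase CD73, fell in siMAPK14 (-1.52) and was at 0.01 in siMAPK8_9 (adjusted p = 0.959), a difference of -1.53 ± 0.26 (SE, adjusted p = 0.00244). CXCR4, a chemokine receptor, rose in siMAPK8_9 (4.30) and was at -0.43 in siMAPK14 (adjusted p = 0.394), a difference of -4.73 ± 0.59 (SE, adjusted p = 3.48e-04). Of 16 histone genes, 1 was above and 2 below 0 (18.8%, beside 15.9% of all genes). Without siMAPK8_9 replicate 2, 3 were above and 3 below 0 of 17, and 37.0% of all genes were called. H2BC12, a histone H2B gene, rose in both, a difference of 1.02 ± 0.20 (SE, adjusted p = 0.00485). Receptor tyrosine kinases and their ligands were called in 2 cases above and 5 below 0 of 32 (21.9%). The balance reversed to 11 above and 6 below 0 without siMAPK8_9 replicate 2, and the median turned from -0.31 to 0.35. NRG1, which encodes the ligand neuregulin-1, rose in siMAPK14 (0.59) and fell in siMAPK8_9 (-1.12), a difference of 1.71 ± 0.19 (SE, adjusted p = 1.55e-04). EPHB2, an ephrin receptor, fell in both (-0.57 and -2.64), a difference of 2.07 ± 0.17 (SE, adjusted p = 1.39e-05). TGFA, a ligand of the EGF receptor, fell in siMAPK14 (-2.17) and rose in siMAPK8_9 (1.59), a difference of -3.77 ± 0.64 (SE, adjusted p = 0.00233), or -2.60 without siMAPK8_9 replicate 2. The receptors EGFR and MET fell in both, and their differences of 0.63 and 0.09 missed the threshold with all libraries (adjusted p = 0.22 and 0.902) and passed it without that replicate, at 1.17 and 0.70.

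The highest differences, taken among called genes with a mean of at least 10 CPM, included genes that the siMAPK8_9 controls held at high levels. CCN3, a secreted matricellular protein, stood at 41.9, 43.2 and 41.9 CPM in the siMAPK14 controls, 40.7, 49.1 and 45.6 CPM in siMAPK14, 184, 181 and 188 CPM in the siMAPK8_9 controls and 30.2, 33.3 and 35.6 CPM in siMAPK8_9. The siMAPK8_9 controls were the only high group and the siMAPK8_9 libraries the lowest. CCN3 fell by 2.48 in siMAPK8_9 and was at 0.09 in siMAPK14 (adjusted p = 0.419), a difference of 2.57 ± 0.13 (SE, adjusted p = 2.02e-07). PEG10, an imprinted gene derived from a retrotransposon, rose in siMAPK14 (0.65) and fell in siMAPK8_9 (-1.91), a difference of 2.56 ± 0.25 (SE, adjusted p = 5.45e-05). ACKR3, a scavenging chemokine receptor, did likewise (1.73 and -0.57), a difference of 2.30 ± 0.31 (SE, adjusted p = 5.55e-04). PXYLP1, FAT3, ZNF469, NTNG1 and PIGM differed by 2.79, 2.62, 2.31, 2.08 and 1.93, and each was highest in the siMAPK8_9 controls.

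Of 18 heat shock genes, 5 were above 0 and none below (27.8%, beside 15.9% of all genes). DNAJB4, a co-chaperone, stood at 107, 113 and 105 CPM in the siMAPK14 controls, 139.5, 112 and 128 CPM in siMAPK14, 318, 307 and 311 CPM in the siMAPK8_9 controls and 157, 144 and 136 CPM in siMAPK8_9. Its siMAPK8_9 controls were above all 9 other libraries, and it differed by 1.33 ± 0.13 (SE, adjusted p = 6.44e-05). The chaperones HSPH1, HSPA8 and HSPB8 differed by 0.83, 0.64 and 0.57. HSPB8 rose in both knockdowns (1.53 and 0.96). With siMAPK8_9 replicate 2 left out the list had 10 above and 3 below 0. It had 1 above and 2 below 0 with total counts alone, 7 and 3 with DESeq2, and 7 and 2 with the length trend removed. In 4 of the 5 genes called with all libraries the gap lay mainly in the controls.

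Among the lowest differences were genes of lipid and arginine metabolism. G0S2, an inhibitor of the lipase that opens lipid droplets, stood at 99.3, 123 and 134 CPM in the siMAPK14 controls, 83.7, 89.2 and 86.6 CPM in siMAPK14, 3.28, 3.05 and 2.59 CPM in the siMAPK8_9 controls and 64.2, 79.9 and 51.4 CPM in siMAPK8_9, and the difference was -4.92 ± 0.23 (SE, adjusted p = 1.38e-07). Its siMAPK8_9 controls were far below the 9 others, which lay within 51.4 to 134 CPM. PLIN2, a coat protein of lipid droplets, differed by -4.77 ± 0.31 (SE, adjusted p = 2.22e-06). ABHD5, the coactivator of the same lipase, went the other way. It rose in siMAPK14 (0.45) and fell in siMAPK8_9 (-0.79), a difference of 1.24 ± 0.11 (SE, adjusted p = 3.37e-05), and its knockdown groups lay at 56.2, 64.4 and 57.2 and 57.6, 53.8 and 56.1 CPM, so that they overlapped. ARG2, mitochondrial arginase, stood at 18.1, 22.8 and 25.6 CPM in the siMAPK14 controls, 24.0, 27.2 and 24.5 CPM in siMAPK14, 2.59, 2.12 and 1.85 CPM in the siMAPK8_9 controls and 62.2, 88.1 and 60.9 CPM in siMAPK8_9, and the difference was -4.83 ± 0.27 (SE, adjusted p = 4.33e-07). ODC1, the first enzyme of polyamine synthesis, rose in siMAPK14 (1.18) and not past the threshold in siMAPK8_9 (0.07, adjusted p = 0.518), a difference of 1.11 ± 0.14 (SE, adjusted p = 2.98e-04). Cholesterol synthesis genes were called in 2 cases above and 3 below 0 of 27, with lanosterol synthase (LSS) at 1.27 and squalene synthase (FDFT1) at -0.84. That is 18.5% beside 15.9% of all genes, and the list had 7 above and 5 below 0 without siMAPK8_9 replicate 2.

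RGS2, a regulator of G protein signalling, had one of the smallest adjusted p-values. It stood at 145, 153 and 171 CPM in the siMAPK14 controls, 120.1, 119 and 138 CPM in siMAPK14, 60.8, 59.4 and 55.3 CPM in the siMAPK8_9 controls and 545, 675 and 692 CPM in siMAPK8_9. The siMAPK8_9 libraries were the highest of the 12 and the siMAPK8_9 controls the lowest, and the difference was -3.76 ± 0.16 (SE, adjusted p = 9.47e-08), with the controls 1.42 apart and the knockdowns -2.34 apart. Of the 158 genes that fell in siMAPK14 and rose in siMAPK8_9, those with the smallest adjusted p included PPP1R3C, a subunit that directs a phosphatase to glycogen, at -3.35 ± 0.16 (SE, adjusted p = 1.38e-07). They also included the brain-type creatine kinase CKB at -2.07 ± 0.14 (SE, adjusted p = 2.22e-06), the MYC antagonist MXI1 at -3.44 ± 0.24 (SE, adjusted p = 4.09e-06) and DEPP1, a regulator of autophagy, at -3.76 ± 0.28 (SE, adjusted p = 5.13e-06). Of the 74 that did the reverse, NCDN, which encodes neurochondrin, rose by 0.87 and fell by 0.62, a difference of 1.48 ± 0.16 (SE, adjusted p = 8.89e-05). SRPRB, a subunit of the signal recognition particle receptor, differed by 1.14 ± 0.11 (SE, adjusted p = 5.45e-05). The zinc finger gene ZSCAN12 differed by 1.41 ± 0.18 (SE, adjusted p = 3.95e-04) and TTC14 by 1.17 ± 0.15 (SE, adjusted p = 4.79e-04).

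**Figure D4:**
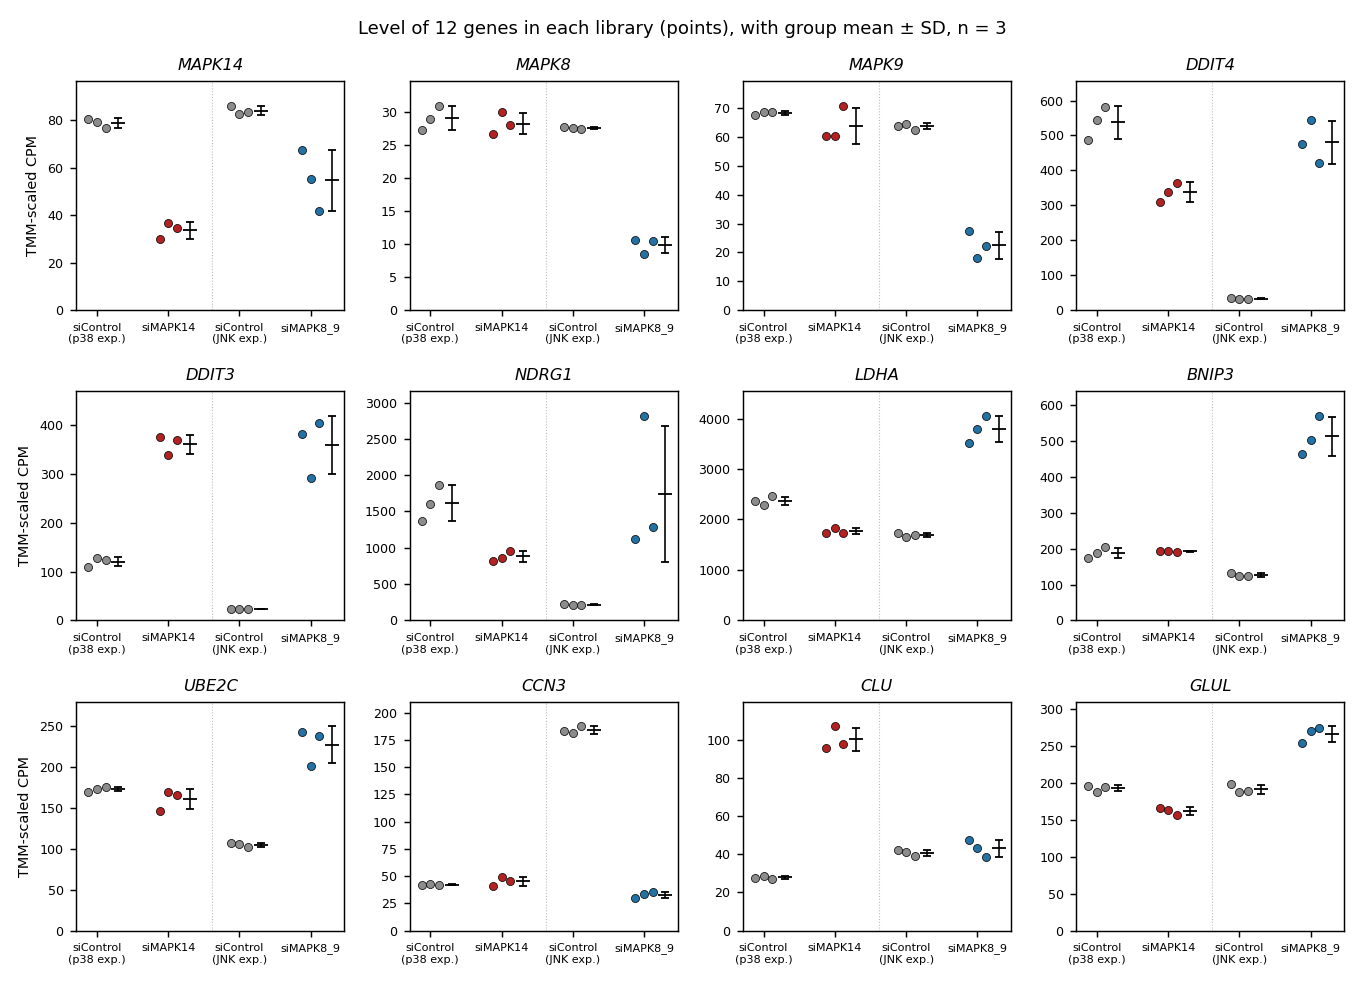
TMM-scaled CPM of 12 genes in each of the 12 libraries (points), with the mean and SD of each group of 3 (bars), for the 2 knockdown groups and their 2 control groups, drawn left and right of the dotted line by experiment. For DDIT4, DDIT3 and NDRG1 the siMAPK8_9 controls lie lowest and for CCN3 highest, and for LDHA, BNIP3 and GLUL the siMAPK8_9 libraries lie above the other 9.

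Marker genes of Müller glia changed in both directions. Of 22 tested, 3 were above and 3 below 0, or 27.3% beside 15.9% of all genes, with a median difference of 0.04. The list had 7 above and 5 below 0 of 23 without siMAPK8_9 replicate 2. GLUL, glutamine synthetase, stood at 196, 189 and 194 CPM in the siMAPK14 controls, 167, 164 and 156 CPM in siMAPK14, 199, 188 and 189 CPM in the siMAPK8_9 controls and 254, 270.4 and 275 CPM in siMAPK8_9. Both control groups overlapped, the siMAPK14 libraries were below them and the siMAPK8_9 libraries above them. GLUL fell by 0.25 in siMAPK14 and rose by 0.47 in siMAPK8_9, a difference of -0.72 ± 0.11 (SE, adjusted p = 0.001). VIM, the intermediate filament vimentin, differed by -0.82 ± 0.24 (SE, adjusted p = 0.0342). TIMP3, an inhibitor of matrix proteases, stood at 57.0 ± 6.05 CPM (SD, n = 3) in the siMAPK14 controls, 12.5 ± 1.76 CPM in siMAPK14, 53.7 ± 1.47 CPM in the siMAPK8_9 controls and 111 ± 70.2 CPM in siMAPK8_9. Its siMAPK14 libraries were the lowest, and its siMAPK8_9 libraries ranged on both sides of the controls, a difference of -3.24 ± 0.57 (SE, adjusted p = 0.0027). SOX2, a transcription factor of retinal progenitors and glia, differed by 1.67 ± 0.32 (SE, adjusted p = 0.00473). Scaled to nuclear-encoded counts, SOX2 stood at 11.1, 10.2 and 8.48 CPM in the siMAPK14 controls and 11.0, 9.14 and 12.0 CPM in siMAPK14, which overlapped. It stood at 20.6, 22.0 and 19.4 CPM in the siMAPK8_9 controls and lower, at 4.88, 9.00 and 3.99 CPM, in siMAPK8_9. SPP1, the secreted protein osteopontin, differed by 1.13 ± 0.27 (SE, adjusted p = 0.0133). SOX9 and PAX6, transcription factors of Müller glia and progenitors, differed by -0.59 and 0.50 (adjusted p = 0.263 and 0.182). GFAP, the filament protein of reactive glia, was at most 1.57 CPM in any library.

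Of 31 reactive gliosis genes, 7 were below 0 and none above (22.6%, beside 15.9% of all genes). Without siMAPK8_9 replicate 2, 9 were below and 7 above 0, and 37.0% of all genes were called. Of 22 reprogramming and neurogenic genes, 1, SOX2, was above and 2 were below with all libraries (13.6%, beside 15.9% of all genes). The latter were STMN1, a microtubule regulator, at -1.40 ± 0.26 (SE, adjusted p = 0.00392), and NOTCH3, a Notch receptor, at -2.49 ± 0.53 (SE, adjusted p = 0.00778). NOTCH3 was low, at 0.622 to 6.32 CPM of nuclear-encoded counts in the 12 libraries, and is also on the fibroblast and pericyte list. The reprogramming list had 7 above and 2 below 0 of 25 without siMAPK8_9 replicate 2, with a median of 0.36 against 0.04 with it. In that setting 37.0% of all genes were called, and the median over all genes was 0.09, against -0.02 with every library. Of 43 interferon-stimulated genes, 2 were above and 7 below 0 (20.9%, beside 15.9% of all genes), or 5 above and 15 below 0 without siMAPK8_9 replicate 2. IFIT2 and RSAD2, antiviral effectors, fell in both knockdowns and by more in siMAPK14, at -1.03 ± 0.21 (SE, adjusted p = 0.00647) and -0.88 ± 0.24 (SE, adjusted p = 0.0253). XAF1, an interferon-induced pro-apoptotic factor, fell in siMAPK14 (-0.71) and rose in siMAPK8_9 (1.42), a difference of -2.14 ± 0.21 (SE, adjusted p = 5.82e-05).

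For 661 genes the 2 effects were alike by a bound on the difference itself. Both effects passed the threshold in the same direction, and the 95% interval of the difference lay within 0.5 of 0 on the log2 scale. 344 of them rose and 317 fell. GADD45B, a stress-induced regulator of p38 and JNK signalling, stood at 67.7, 74.4 and 66.1 CPM in the siMAPK14 controls, 211, 219 and 199 CPM in siMAPK14, 59.4, 64.1 and 67.1 CPM in the siMAPK8_9 controls and 213, 169.6 and 211 CPM in siMAPK8_9. Both control groups overlapped, as did both knockdown groups. GADD45B rose by 1.59 and 1.64, a difference of -0.04 ± 0.14 (95% interval -0.36 to 0.27). TAF1D, a factor of RNA polymerase I, NDUFAB1, a subunit of complex I, DAD1, a subunit of oligosaccharyltransferase, RBM34 and MRPL55 rose by 1.15 to 1.21 in siMAPK14 and by 1.21 to 1.28 in siMAPK8_9. POLE, the catalytic subunit of DNA polymerase epsilon, fell by 1.61 and 1.63, with a 95% interval of -0.41 to 0.44. LMNB1, which encodes lamin B1, fell by 1.59 and 1.61, and IQSEC1, KIF4A, KIF14 and ADD2 fell by 1.30 to 1.55 in siMAPK14. In the other 11 libraries, without siMAPK8_9 replicate 2, 1314 genes were alike, 547 of the 661 among them. With the trend on transcript length removed, 603 were alike and 192 of the 661 were among them.

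Large families that rose in both knockdowns were mostly not called for the difference with all libraries. All 76 cytosolic ribosomal protein genes rose in both (medians 1.13 and 1.65), and 1 differed, below 0. When siMAPK8_9 replicate 2 was left out, 75 were below 0, with a median difference of -0.71. With the length trend removed as well, 38 were below and 2 above, with a median of -0.22. Of 57 nuclear genes of oxidative phosphorylation, 2 were below 0, and 41 without the replicate. Of the 13 mitochondrially encoded genes, all rose in siMAPK14 and 12 in siMAPK8_9. MT-ND6, the light-strand subunit of complex I, differed by 3.37 ± 0.76 (SE, adjusted p = 0.0112) and MT-ATP8, a subunit of ATP synthase, by 2.42 ± 0.66 (SE, adjusted p = 0.0276). These were the 2 called, 7 of the 13 were above 0 without the replicate, and 12 with the length trend removed as well. MT-ND6 stood at 5.63, 5.44 and 7.08 CPM in the siMAPK14 controls, 129, 211 and 117 CPM in siMAPK14, 25.4, 22.8 and 32.2 CPM in the siMAPK8_9 controls and 101, 12.2 and 87.1 CPM in siMAPK8_9. The labels do not state whether counting used strand, so its reads cannot be told apart from those of MT-ND5 opposite it, nor those of MT-ATP8 wholly from the overlapping MT-ATP6.

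A few called genes rested on siMAPK8_9 replicate 2 alone. JUP, the junction protein plakoglobin, stood at 1.61, 1.51 and 1.49 CPM in the siMAPK14 controls, 0.413, 0 and 0.948 CPM in siMAPK14, 0.665, 0.517 and 0.419 CPM in the siMAPK8_9 controls and 0.570, 143 and 1.11 CPM in siMAPK8_9. The other 11 libraries were at most 1.61 CPM. Its difference of -8.08 ± 2.21 (SE, adjusted p = 0.028) was -2.17 without the replicate (adjusted p = 0.107). SERPINB5, the epithelial serpin maspin, likewise went from -7.44 ± 2.11 (SE, adjusted p = 0.032) to -1.08 (adjusted p = 0.345), and KRT15, a basal keratin, from -3.34 to -1.12 (adjusted p = 0.104). TP63, a transcription factor of basal epithelium, stood at 11.9, 11.5 and 9.07 CPM in the siMAPK14 controls, 3.14, 1.64 and 1.72 CPM in siMAPK14, 3.65, 3.64 and 3.67 CPM in the siMAPK8_9 controls and 3.99, 18.8 and 4.90 CPM in siMAPK8_9 and kept a difference of -2.55 without the replicate (adjusted p = 1.72e-04). The part of that library in other differences was measured by leaving it out. Of 132 genes called among the 160 named here, 129 were also called without it and 3 were not. Of the 22 other settings that gave an adjusted p for KRT15, SERPINB5 and JUP, their calls were made in 4 to 8. Those for ITCH, BAX, VIM, MAPKAPK3, MAPK13, CDK6, TPX2, RPS6KA4 and ACTA2 were made in 7 to 12 of 23.

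**Figure D5:**
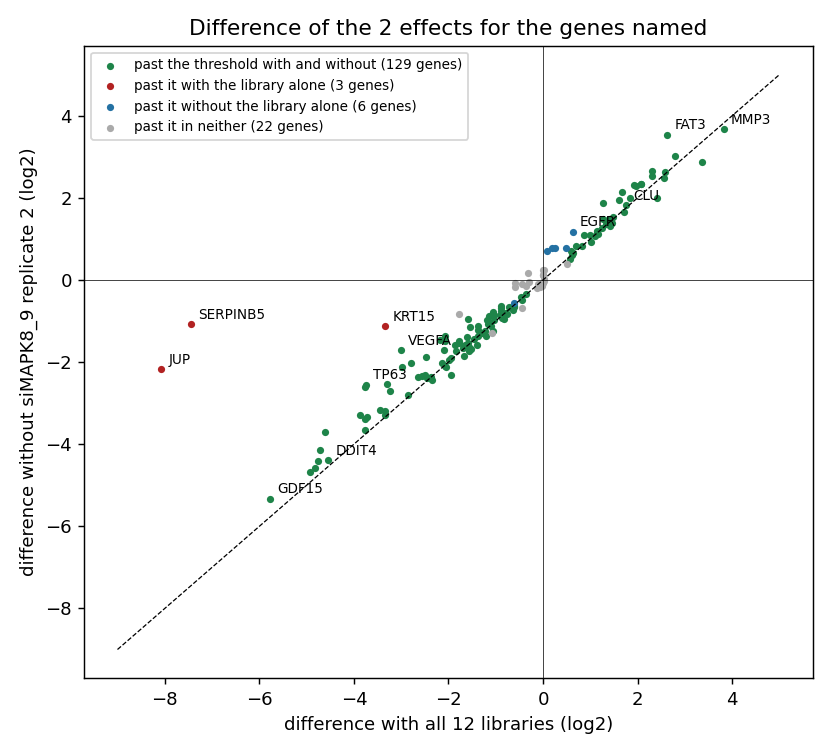
Difference of the 2 effects without siMAPK8_9 replicate 2 against the difference with all 12 libraries, both on the log2 scale, for the 160 genes named. The dashed line marks equal values. JUP and SERPINB5 lie far from it, and of the 129 genes called in both settings VEGFA moved from -3.00 to -1.71.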

How the data were processed

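Poly(A) RNA of 12 libraries in 4 groups of 3 was measured, grouped by the treatment in the labels, and the groups came as 2 deposited tables joined on gene ID. Per the submitters' processing notes, the tools named are RSEM 1.3.1, DESeq2 1.4.5 and Bowtie2 2.3.4.3, and the build is GRCh38.p14, with no role given for any. Per the file headers, the authors deposited expected counts per gene and library, which were rounded to whole numbers and tested. The authors also deposited FPKM values, used only to derive effective transcript length, and TPM values, a normalised signal and mean columns, which were not used. The 2 tables hold 24 further per-library columns that were not used. Of the genes in 1 table alone, 846 were in the siMAPK14 table and 394 in the siMAPK8_9 table, and they took at most 0.0146% of a library's counts.

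All 12 libraries were fitted together with edgeR 4.0.16 in R 4.3.3 (TMM scaling, robust quasi-likelihood test, 1 mean per group), after a filter at a minimum count of 10 and a minimum total of 15. P-values were adjusted by Benjamini-Hochberg over all 13648 genes, with a threshold of 0.05. CPM values are TMM-scaled, and 1 count was worth 0.0317 to 0.108 CPM before scaling. The step was tested on simulated data. No 2 libraries of a group agreed within sampling noise. The test is the interaction contrast over the 2 experiments, and DESeq2 1.42.0 and limma 3.58.1 (voom) were run as alternatives, with other scalings, filters, a length correction and libraries left out.

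Genes named were the 12 highest and 12 lowest differences at 10 CPM or more, the targeted and glial genes, up to 5 called and 2 other members per list, the 8 per direction with opposite effects and the 6 per direction changed alike. This rule gave 130 of the 160 genes named (1 other that it gives is not reported here), and the other 30, among them LDHA, CDK1, CXCL8, ASNS and VEGFA, are list members chosen after their values were seen. The gene lists and the members were chosen with earlier results of these data known, and the classes by the larger gap after the values were seen. Figures were drawn with matplotlib 3.10.9.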

Additional observations from a re-analysis of the deposited data

How the results depend on the processing

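The 2169 genes with a different effect became 1028 with total counts, 3799 with limma-voom library weights, 1179 with the replicate block, 1368 with a minimum fold of 1.2, and 4656 with the length trend removed and siMAPK8_9 replicate 2 left out, an alternative chosen after seeing the data. Genes with a higher effect in siMAPK14 (938) became 184, 1631, 457, 533 and 2109 in these settings and 1453 with DESeq2, and those with a lower effect (1231) became 2168 with limma-voom, 722 with the replicate block and 2547 with the last. Opposite effects (232) became 354 with DESeq2, 148 with the block, 102 with the minimum fold and 518 with the last. Same-direction genes (623) became 213 with total counts, 1027 with DESeq2, 1919 with limma-voom, 289 with the block, 380 with the length trend removed, 242 with the minimum fold and 1504 with the last. Genes changed in siMAPK14 alone (368) became 233, 562, 175, 233 and 743 with total counts, DESeq2, the block, the minimum fold and the last. Those in siMAPK8_9 alone (935) became 403 with total counts, 567 with the block and 1789 with the last, and genes changed alike (661) became 201, 353 and 1177.

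With each library left out in turn, the ranges were 1266 to 5205 for a different effect, 481 to 2807 for higher, 773 to 2398 for lower, 149 to 410 for opposite, 276 to 2726 for the same direction, 189 to 579 for siMAPK14 alone, 582 to 1445 for siMAPK8_9 alone and 363 to 1314 for alike. Leaving out siMAPK8_9 replicate 2 gave the 5205, and leaving out any 1 of the 6 control libraries gave 1266 to 1371. The counts for the single effects ranged from 5370 to 8560 in siMAPK14 and from 7082 to 9355 in siMAPK8_9. DAD1 turned to 0.35 and ADD2 to -0.42 with the length trend removed and siMAPK8_9 replicate 2 left out. Of the 132 named genes called, 39 lost the call with total counts, 17 with the block and 0 to 20 in each other setting, and the cause was not tested. Replicate numbers gave no sign of pairing, with same-numbered deviations correlated between -0.034 and 0.032 across genes. These correlations cannot show whether the cultures were paired. With the block, 1175 of its 1179 calls were among the 2169. The depth of 9246294 to 31510571 counts limits genes near 1 CPM, such as GFAP.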
